A study of Mus musculus with 17 samples.

Results

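The genes described here carry glucose into the brown fat cell and decide what becomes of it. They are 36 genes of glucose transport, glycolysis, lactate handling, the control of pyruvate oxidation and glycogen metabolism, taken by gene symbol from the 21982 rows of a deposited count table. All 36 were in the table, and all 36 passed the filter on low counts. Brown adipose tissue, the fat that burns fuel to make heat, was sequenced as mRNA from 17 C57BL/6 mice, 1 library per mouse. Nocturnin (Noct) knockouts and their wild-type littermates were each placed alone, without food, for 4 h in the cold (6 °C) or at room temperature (22 °C). The groups were 4 knockouts at 6 °C, 4 knockouts at 22 °C, 5 wild types at 6 °C and 4 wild types at 22 °C. All groups thus shared the strain, single housing and the lack of food. The labels give wild types as Noc+/+, and the sources used here do not say which part of Noct the knockouts lack.

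Glucose enters a cell through carriers of the Slc2a family and is trapped by hexokinase as glucose phosphate, which can run down glycolysis to pyruvate or be stored as glycogen. Phosphofructokinase, set by the bisphosphate that the Pfkfb enzymes make and remove, is the main control point on the way down. At the end, the pyruvate dehydrogenase kinases decide whether pyruvate is oxidised in the mitochondria or spared. Active brown fat is known as a strong sink for blood glucose when it is driven by its sympathetic nerves, and it also builds and uses glycogen.

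Library totals ran from 18410748 to 47598200 counts, of which mitochondrially encoded genes took 43.4 to 57.3%. Noct had 18.2 to 27.2 CPM (counts relative to library size, with libraries scaled by the TMM method) in knockouts at 6 °C, 3.37 to 34.2 CPM in knockouts at 22 °C, 238 to 457 CPM in wild types at 6 °C and 91.5 to 176 CPM in wild types at 22 °C, so the highest knockout stood under the lowest wild type. Brown fat markers were abundant in every group and moved with cold: of 15, 4 rose and 1 fell in knockouts, and 5 rose and 3 fell in wild types. Their summed level was 15040.3 to 19440 CPM in knockouts at 6 °C, 11182 to 14841 CPM in knockouts at 22 °C, 15498 to 19703 CPM in wild types at 6 °C and 11302.5 to 12708 CPM in wild types at 22 °C, without overlap between temperatures. Ucp1, the heat-producing uncoupling protein, ranged from 3684 to 7847 CPM over the 17 libraries. The summed level of 15 skeletal muscle markers varied widely inside every group, with ranges of 29.0 to 1581 CPM in knockouts at 6 °C, 72.5 to 1124 CPM in knockouts at 22 °C, 55.8 to 1201 CPM in wild types at 6 °C and 35.9 to 878 CPM in wild types at 22 °C. None of these 15 muscle markers passed the test in any comparison, and with their mean level as a covariate the same number of glucose genes passed in each cold response as without it. Markers of other cells moved in part. Of 11 endothelial markers, 2 rose and 1 fell in knockouts and 3 rose and 2 fell in wild types in the cold, with sums of 495 to 709 CPM in knockouts at 6 °C, 534 to 567 CPM in knockouts at 22 °C, 553 to 696 CPM in wild types at 6 °C and 455 to 572 CPM in wild types at 22 °C. Of 11 tested macrophage markers, 1 rose in each genotype (Cd163), with sums of 62.1 to 109 CPM in knockouts at 6 °C, 54.6 to 62.4 CPM in knockouts at 22 °C, 57.8 to 85.7 CPM in wild types at 6 °C and 61.4 to 86.8 CPM in wild types at 22 °C. Of 7 white adipocyte markers 1 rose (Nrip1) and 1 fell (Lep) in each genotype. Their median was -0.01 log2 in knockouts, with 3 of 7 positive, and -0.56 log2 in wild types, with 1 of 7 positive. Their sums were 65.0 to 79.1 CPM in knockouts at 6 °C, 51.4 to 89.4 CPM in knockouts at 22 °C, 59.9 to 92.3 CPM in wild types at 6 °C and 69.8 to 99.5 CPM in wild types at 22 °C. None of 6 tested red cell markers passed, and no marker was at 0 in all libraries. The part of these cells in the results was not tested. In bulk tissue, fewer cells of a type and less RNA per cell cannot be told apart. Females made up 1 of 4 knockouts at 6 °C, 1 of 4 knockouts at 22 °C, 4 of 5 wild types at 6 °C and 3 of 4 wild types at 22 °C, and sex was therefore a term of the model. Ages are labelled, with no unit, as 11.14 to 17 for knockouts at 6 °C, 11.14 to 23.57 for knockouts at 22 °C, 11.14 to 23 for wild types at 6 °C and 11.14 to 23.57 for wild types at 22 °C; the series' design text has 10 to 20 weeks.

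Cold changed a minority of the glucose genes. In the cold, 5 genes rose in both genotypes. These were Slc2a1, the basal glucose carrier GLUT1, Hk2, the insulin-responsive hexokinase, Pfkp, the platelet-type phosphofructokinase, Pdk4, an inhibitory kinase of pyruvate dehydrogenase, and Ugp2, which makes the UDP-glucose used for glycogen. Pfkfb1 and Pygb fell in both genotypes. Pgk1 rose and Pfkfb4 fell in wild types, and neither passed in knockouts. "Rose" and "fell" mean an adjusted p below 0.05 in edgeR's quasi-likelihood test over 12486 genes.

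In knockouts, 7 of the 36 genes (19.4%) passed in the cold, 5 higher and 2 lower, where 21.6% of all tested genes passed (11.6% higher and 10% lower). In wild types, 9 of the 36 (25.0%) passed, 6 higher and 3 lower, where 27.6% of all tested genes passed (14.3% higher and 13.3% lower). Both shares were near those of all genes, so the number of changed genes did not set the glucose genes apart. All 7 genes that passed in knockouts were among the 9 that passed in wild types. The median log2 fold change of the 36 genes was 0.06 in knockouts, against -0.02 over all tested genes. In wild types it was 0.26, against -0.03 over all tested genes. When the same counts were scaled by library totals, without TMM, the median of all genes moved to -0.09 in knockouts and -0.23 in wild types. The share of higher genes among those that passed was then 43.9% in knockouts, against 53.6% with TMM, and 23.0% in wild types, against 51.8% with TMM. On that scale the same number passed in knockouts (5 higher, 2 lower), while in wild types 3 genes were higher (Pfkp, Pdk4, Ugp2) and 5 lower, with Pfkm and Pdk1 added to Pfkfb1, Pfkfb4 and Pygb. The median of the 36 genes was then -0.01 in knockouts and 0.06 in wild types, in each case above the median of all genes on the same scale.

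**Figure D1:**
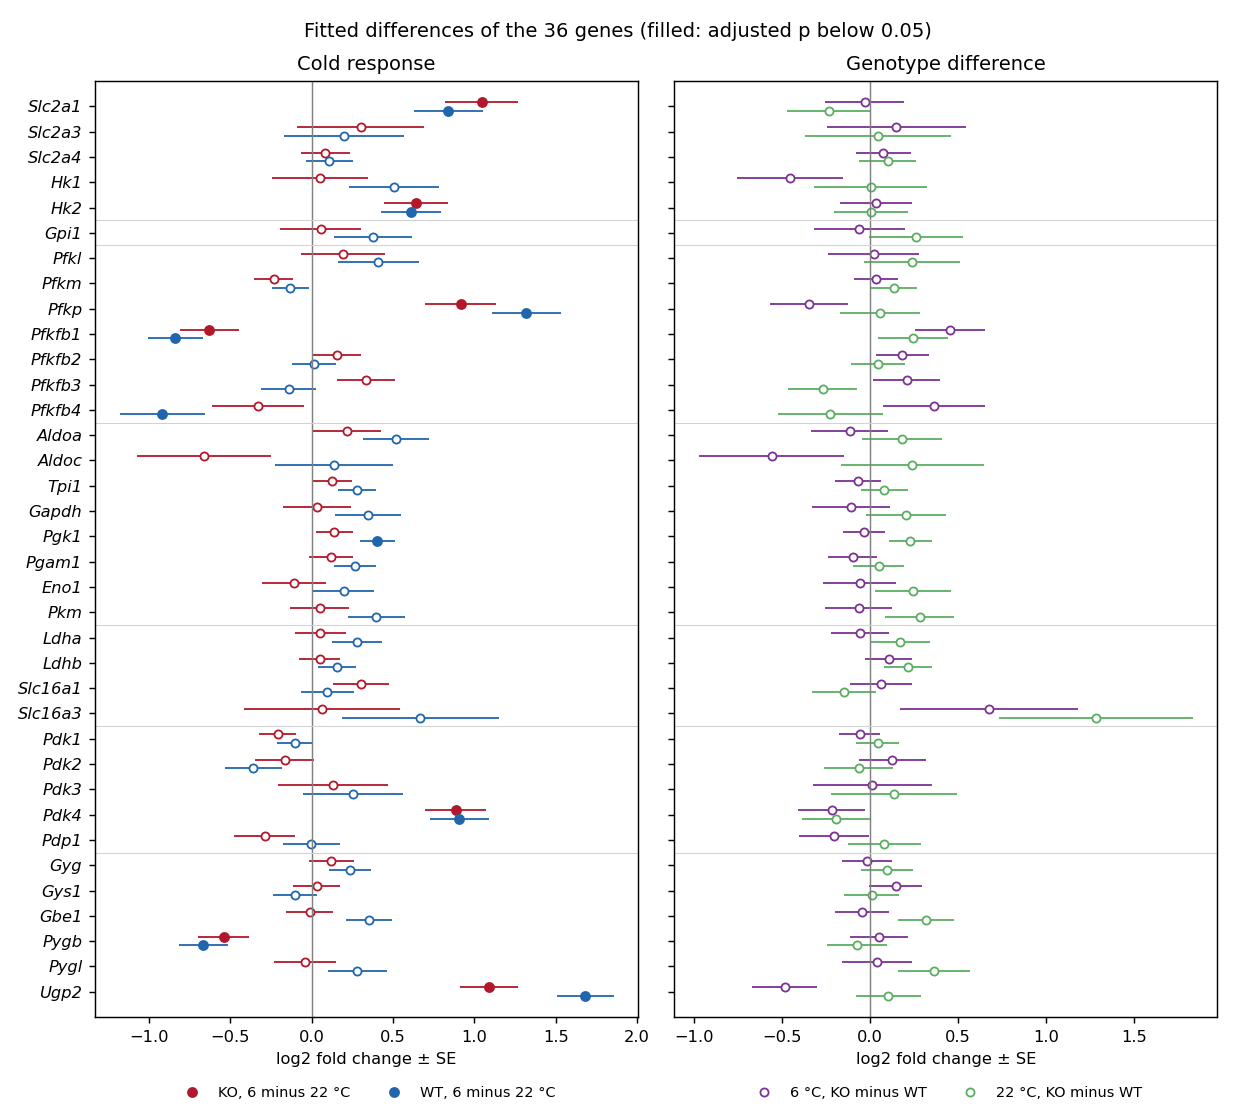
Fitted log2 fold changes ± SE of all 36 genes, grouped by step from glucose entry (top) to glycogen (bottom). The left panel shows cold minus 22 °C in knockouts (red) and wild types (blue), with filled points where the adjusted p was below 0.05 (7 genes in knockouts, 9 in wild types). The right panel shows knockout minus wild type at 6 °C (purple) and 22 °C (green), where no point is filled.

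The promoters of the 5 genes that rose in both genotypes are shown because these genes moved together while most of their relatives did not pass. Each line gives 250 bases before and 50 bases after the first listed RefSeq start on GRCm38.p6, 5′ to 3′ on the gene's strand. Other starts of a gene were not examined. The Ugp2 window lies wholly upstream of the gene as GENCODE places it, on the minus strand from 21371201. Capitals mark, on both strands, the hypoxia-response core, spelled ACGTG or, in its other form, GCGTG, as well as the cAMP half-site, spelled TGACG. A match on the other strand appears as its reverse complement, and marks may overlap.
Slc2a1 (chr4:119108495-119108794, plus strand): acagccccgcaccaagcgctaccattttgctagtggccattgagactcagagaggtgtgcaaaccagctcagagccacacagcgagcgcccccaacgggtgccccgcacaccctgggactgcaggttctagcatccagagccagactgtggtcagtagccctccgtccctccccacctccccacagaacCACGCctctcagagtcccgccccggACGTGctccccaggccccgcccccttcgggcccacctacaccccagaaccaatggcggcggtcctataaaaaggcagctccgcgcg
Hk2 (chr6:82774405-82774704, minus strand): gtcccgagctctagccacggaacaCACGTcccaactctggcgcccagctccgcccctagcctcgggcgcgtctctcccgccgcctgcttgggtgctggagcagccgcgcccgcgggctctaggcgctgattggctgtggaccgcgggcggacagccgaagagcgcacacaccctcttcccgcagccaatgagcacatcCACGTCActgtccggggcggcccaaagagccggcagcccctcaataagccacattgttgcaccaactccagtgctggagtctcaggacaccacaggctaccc
Pfkp (chr13:6648722-6649021, minus strand): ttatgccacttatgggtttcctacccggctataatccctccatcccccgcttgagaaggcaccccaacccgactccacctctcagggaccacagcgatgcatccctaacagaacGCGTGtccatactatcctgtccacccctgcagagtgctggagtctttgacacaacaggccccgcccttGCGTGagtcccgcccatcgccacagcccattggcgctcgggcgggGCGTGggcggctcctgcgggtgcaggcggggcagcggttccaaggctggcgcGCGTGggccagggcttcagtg
Pdk4 (chr6:5496229-5496528, minus strand): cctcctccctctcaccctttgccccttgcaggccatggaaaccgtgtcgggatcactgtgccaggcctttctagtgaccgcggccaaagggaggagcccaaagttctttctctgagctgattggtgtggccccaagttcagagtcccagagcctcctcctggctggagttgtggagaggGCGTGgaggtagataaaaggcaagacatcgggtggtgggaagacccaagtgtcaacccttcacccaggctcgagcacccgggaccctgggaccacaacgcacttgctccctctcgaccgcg
Ugp2 (chr11:21371218-21371517, minus strand): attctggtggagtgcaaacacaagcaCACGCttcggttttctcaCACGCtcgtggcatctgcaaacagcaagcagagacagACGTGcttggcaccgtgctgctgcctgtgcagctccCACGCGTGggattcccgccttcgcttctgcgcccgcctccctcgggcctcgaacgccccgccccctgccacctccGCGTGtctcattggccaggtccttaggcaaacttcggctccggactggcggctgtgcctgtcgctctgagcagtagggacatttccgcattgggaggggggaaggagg
The hypoxia core was present in all 5 windows, and the one cAMP half-site lay in Hk2, overlapping a core. Such a match is frequent: 43.8% of 27025 RefSeq promoters of the same length held either form of the core and 21% held the cAMP half-site. Of the 36 genes, 33 had a RefSeq promoter, all but Slc2a3, Slc2a4 and Pdp1, and 25 of these 33 held the core, among them 8 of the 9 genes that passed in the cold. The cAMP half-site was found in 11 of 33, and in 3 of the 9 that passed. An E-box, CACGTG, which contains the core, was found in 6 of the 33 promoters, against 7.24% of all promoters, and in none of the 9. The full cAMP site TGACGTCA, which contains the half-site, was found in 1 of 33 (1.88% of all promoters), the estrogen-related receptor half-site AAGGTCA in 2 (4.66%) and the heat-shock pair GAANNTTC in 1 (7.95%), none of them among the 9. The 5 windows had 60.7 to 67.3% G and C, and the shares were not matched for base composition.

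Glucose entry was covered by 3 carriers and 2 hexokinases. Slc2a1 (chromosome 4, 119108711 to 119137983, plus strand) encodes GLUT1, which admits glucose without insulin. In knockouts its level was 7.65, 5.49, 3.84 and 4.66 CPM at 6 °C, against 2.93, 2.95, 2.79 and 1.71 CPM at 22 °C. In wild types it was 7.48, 4.99, 6.05, 5.43 and 5.87 CPM at 6 °C, against 3.60, 4.00, 3.08 and 2.27 CPM at 22 °C. Every cold library lay above every 22 °C library of its genotype. An exon of Gm12868 on the opposite strand overlaps Slc2a1, and Gm12868 is not in the count table. Slc2a1 rose by 1.04 ± 0.23 log2 in knockouts (adjusted p = 0.00339) and by 0.84 ± 0.21 log2 in wild types (adjusted p = 0.00741). Scaled by library totals, the wild-type value was 0.63 and narrowly missed the threshold (adjusted p = 0.0528).

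Slc2a1 was nonetheless a minor carrier in this tissue. Slc2a4, the insulin-regulated carrier GLUT4, averaged 74.2 RPKM (reads per kilobase of transcript scaled to library size, used here to compare genes) in knockouts at 6 °C, 72.4 RPKM in knockouts at 22 °C, 79.3 RPKM in wild types at 6 °C and 82.9 RPKM in wild types at 22 °C, while Slc2a1 stayed at or below 2.12 RPKM in every library. Slc2a4 had 333, 242, 191 and 317 CPM in knockouts at 6 °C, against 262, 256, 266 and 229.9 CPM at 22 °C. In wild types it had 244, 221, 283, 361 and 301 CPM at 6 °C, against 297, 248, 244 and 242 CPM at 22 °C. These groups overlapped, and the fitted values were 0.08 ± 0.15 log2 in knockouts and 0.11 ± 0.14 log2 in wild types, with 95% intervals of -0.23 to 0.40 and -0.19 to 0.41. As a share of the 3 carriers' summed RPKM, Slc2a1 made up 1.95 ± 0.366% in knockouts at 6 °C and 0.995 ± 0.182% in knockouts at 22 °C (SD, n = 4 each). The share was 2.11 ± 0.537% in wild types at 6 °C and 1.23 ± 0.267% in wild types at 22 °C (SD, n = 5 and 4), where 1 cold library lay inside the 22 °C range. Slc2a3, the neuronal-type carrier GLUT3, was scarce, at 0.0718 to 0.240 RPKM over all libraries.

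Hk2 (chromosome 6, 82725025 to 82774454, minus strand) traps glucose as glucose phosphate and was the main hexokinase here, with 96.3% of the Hk1 and Hk2 RPKM in knockouts at 6 °C, 94.6% in knockouts at 22 °C, 94.3% in wild types at 6 °C and 94.1% in wild types at 22 °C. In knockouts it had 541, 376, 486 and 475 CPM at 6 °C, against 221, 306, 283 and 403 CPM at 22 °C. In wild types it had 447, 396, 440.3, 508 and 429 CPM at 6 °C, against 390.0, 344, 221 and 217 CPM at 22 °C. The knockout groups overlapped by 1 library, and the wild-type groups did not overlap. Hk2 rose by 0.64 ± 0.20 log2 in knockouts (adjusted p = 0.0263) and by 0.61 ± 0.19 log2 in wild types (adjusted p = 0.022). Leaving out wild-type 22 °C replicate 3 (0.51, adjusted p = 0.0784) or replicate 4 (0.50, adjusted p = 0.0802), the lowest libraries of that group, ended the wild-type call, as did scaling by library totals (0.40, adjusted p = 0.101). The knockout call was lost without knockout 6 °C replicate 1 (adjusted p = 0.0889) or 3 (0.0517) and without knockout 22 °C replicate 1 (0.100), 2 (0.0552) or 3 (0.0605), with fitted values of 0.51 to 0.65 log2, and with male knockouts alone (0.43, adjusted p = 0.199). Hk1, the housekeeping hexokinase, did not pass (0.05 ± 0.30 log2 in knockouts, 0.51 ± 0.28 log2 in wild types), although it passed in wild types without wild-type 22 °C replicate 1 (0.87, adjusted p = 0.031).

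**Figure D2:**
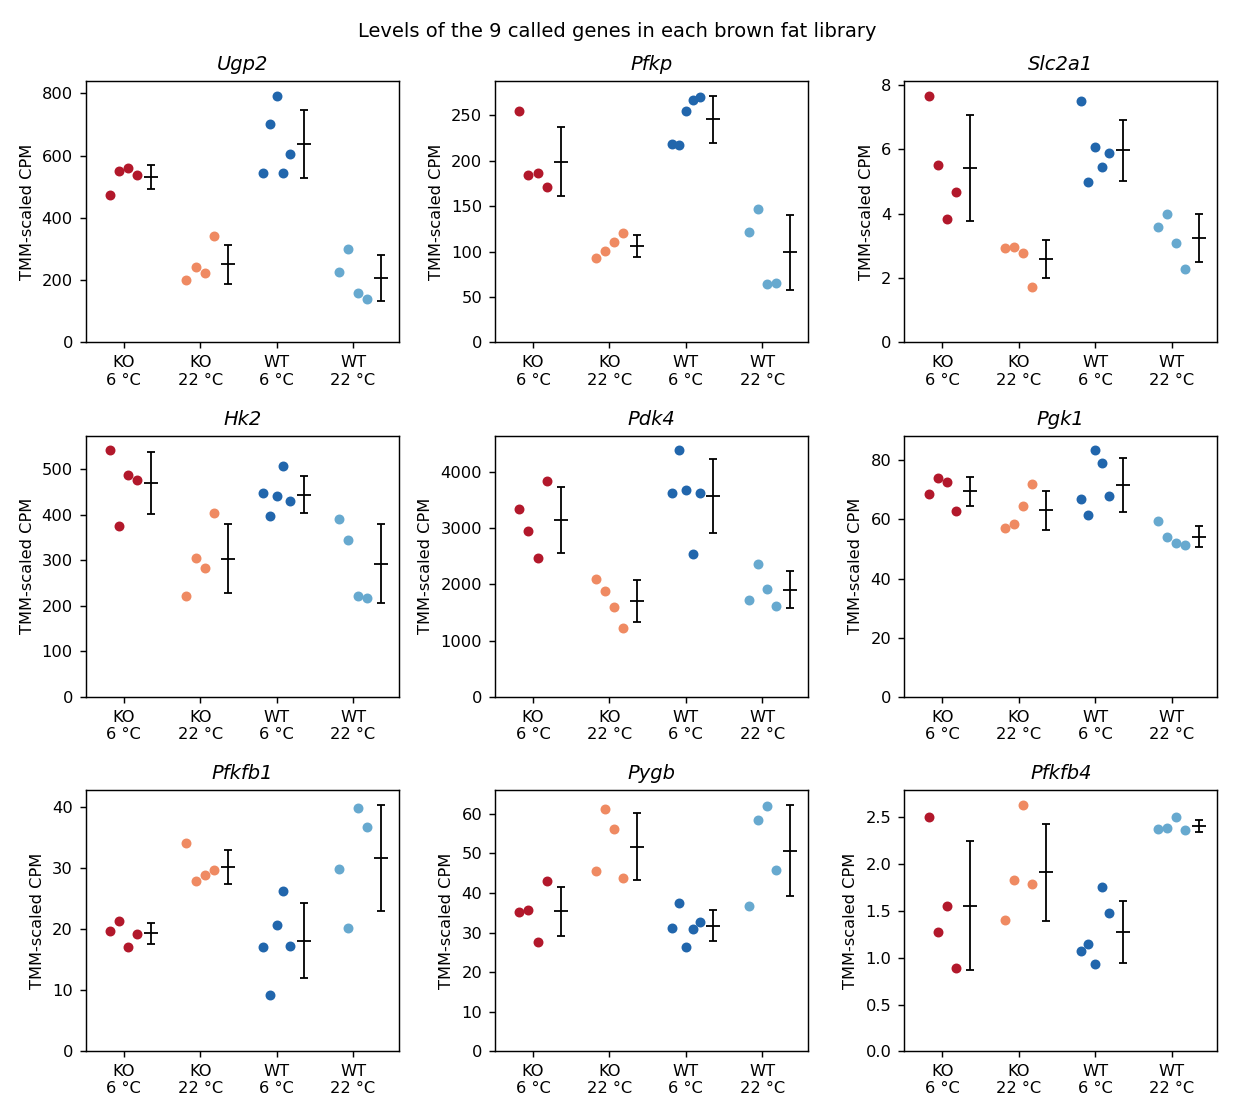
Levels in TMM-scaled CPM (vertical axis, from 0) of the 9 genes that passed in the cold, 1 point per library, with the mean and SD of each group beside its points. From left to right the groups are knockouts at 6 °C, knockouts at 22 °C, wild types at 6 °C and wild types at 22 °C. In Ugp2, Pfkp, Slc2a1 and Pdk4 every cold library lies above every 22 °C library of its genotype, while Pfkfb1 and Pygb lie lower in the cold.

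The commitment of fructose phosphate to glycolysis showed opposite changes among its enzymes. Of 3 phosphofructokinases and 4 Pfkfb enzymes, 1 rose and 1 fell in knockouts, and 1 rose and 2 fell in wild types. Pfkp (chromosome 13, 6579768 to 6648777, minus strand), the phosphofructokinase named for platelets, had 255, 184, 186 and 171 CPM in knockouts at 6 °C, against 92.6, 101, 111 and 119.8 CPM at 22 °C. In wild types it had 218, 217, 255, 266 and 269.9 CPM at 6 °C, against 121, 146, 64.0 and 65.6 CPM at 22 °C. The groups did not overlap in either genotype. Pfkp rose by 0.92 ± 0.22 log2 in knockouts (adjusted p = 0.00649) and by 1.32 ± 0.21 log2 in wild types (adjusted p = 0.000344), and both calls held in every alternative that was run. An exon of Pitrm1 on the opposite strand overlaps Pfkp, and its own values were 0.02 log2 in knockouts and 0.20 log2 in wild types, neither past the test.

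The liver-type Pfkl and the muscle-type Pfkm did not pass with TMM scaling. Pfkl was 0.19 ± 0.26 log2 in knockouts and 0.41 ± 0.25 log2 in wild types. Pfkm was -0.23 ± 0.12 log2 in knockouts and -0.13 ± 0.11 log2 in wild types. The make-up of the phosphofructokinase pool therefore shifted towards Pfkp in the cold. Pfkp supplied 15.9, 17.2, 22.5 and 14.7% of the pool's RPKM in knockouts at 6 °C, against 9.97, 9.61, 9.43 and 13.6% at 22 °C. In wild types it supplied 21.6, 18.6, 21.6, 18.1 and 21.7% at 6 °C, against 11.4, 13.4, 8.77 and 9.69% at 22 °C. These shares did not overlap within a genotype and differed by 6.91 percentage points in knockouts and 9.49 in wild types. Pfkl remained the most abundant form, at a mean of 64.2% in knockouts at 6 °C, 65.7% in knockouts at 22 °C, 63.8% in wild types at 6 °C and 64.6% in wild types at 22 °C, and the Pfkm share was lower in every cold wild-type library than in every wild-type library at 22 °C. By counts, Pfkp averaged 32.8% of the pool in knockouts at 6 °C, against 21.9% at 22 °C. The wild-type averages were 36.5% at 6 °C and 22.2% at 22 °C. The size of the Pfkp share thus depends on the lengths behind the deposited RPKM, while the direction of its shift does not. Shares are a description of family members that share libraries, and no test was made on them.

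**Figure D3:**
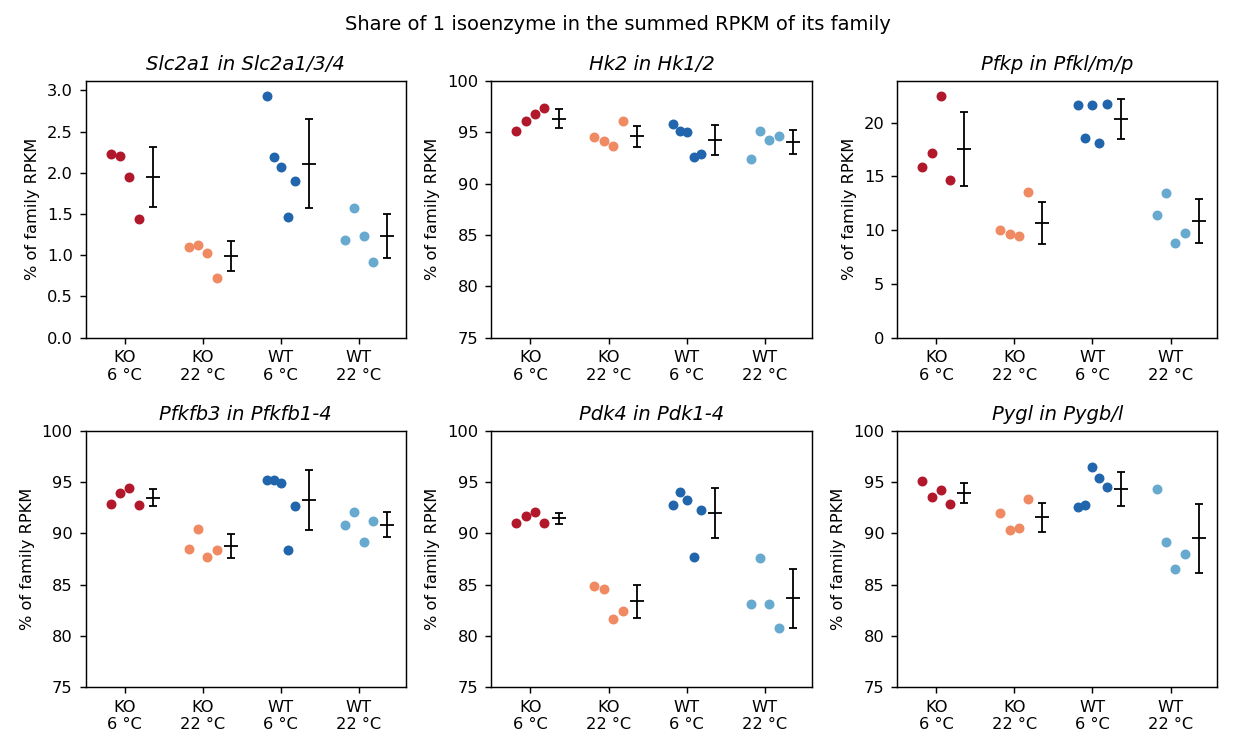
Share (%) of 1 gene in the summed RPKM of its family, 1 point per library with group mean and SD, for knockouts at 6 °C, knockouts at 22 °C, wild types at 6 °C and wild types at 22 °C from left to right. The axes of Slc2a1 and Pfkp start at 0 and the others at 75%. Pfkp averages 17.6% and 20.3% in the cold groups of knockouts and wild types, against 10.6% and 10.8% at 22 °C, and Pdk4 is higher in every cold library than in every 22 °C library of its genotype.

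The Pfkfb enzymes make and degrade the bisphosphate that activates phosphofructokinase. Pfkfb1 (chromosome X, 150588229 to 150643878, plus strand), the liver and muscle form, had 19.7, 21.2, 17.1 and 19.2 CPM in knockouts at 6 °C, against 34.1, 27.8, 28.9 and 29.7 CPM at 22 °C. In wild types it had 17.1, 9.27, 20.7, 26.2 and 17.2 CPM at 6 °C, against 29.8, 20.2, 39.8 and 36.7 CPM at 22 °C. The knockout groups were apart, and the wild-type groups overlapped through wild-type 22 °C replicate 2. Pfkfb1 changed by -0.63 ± 0.18 log2 in knockouts (adjusted p = 0.0192) and -0.84 ± 0.17 log2 in wild types (adjusted p = 0.00176). The knockout call was lost without knockout 6 °C replicate 1 (-0.46, adjusted p = 0.0925), without knockout 22 °C replicate 3 (-0.58, adjusted p = 0.0539) and without the sex term (-0.64, adjusted p = 0.0538). Apex2, whose exon overlaps Pfkfb1 on the opposite strand, passed in neither genotype.

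Pfkfb4 (chromosome 9, 108991778 to 109032228, plus strand), a form expressed in testis and induced by hypoxia, was scarce, at 0.170 to 0.570 RPKM (19 to 124 counts) over all libraries. It had 2.51, 1.28, 1.55 and 0.886 CPM in knockouts at 6 °C, against 1.41, 1.83, 2.64 and 1.79 CPM at 22 °C. In wild types it had 1.08, 1.15, 0.931, 1.76 and 1.48 CPM at 6 °C, against 2.38, 2.38, 2.51 and 2.37 CPM at 22 °C. The wild types at 22 °C were tightly grouped above all cold wild types, whereas the knockout groups overlapped. The change was -0.92 ± 0.26 log2 in wild types (adjusted p = 0.0154) and -0.33 ± 0.28 log2 in knockouts (adjusted p = 0.46), and the difference between these responses did not pass (0.59 ± 0.39 log2, 95% interval -0.22 to 1.40).

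Pfkfb3, the form with high kinase activity, carried most of the family. Its level was 627, 726, 692 and 559 CPM in knockouts at 6 °C, against 561, 565, 461 and 489 CPM at 22 °C. In wild types it was 806, 473, 862, 452 and 526 CPM at 6 °C, against 646, 560.2, 703 and 819 CPM at 22 °C. Both pairs of groups overlapped, and Pfkfb3 did not pass (0.33 ± 0.18 log2 in knockouts, -0.14 ± 0.17 log2 in wild types). Its share of the family's RPKM averaged 93.5% in knockouts at 6 °C, against 88.8% at 22 °C, without overlap, and 93.3% in wild types at 6 °C, against 90.8% at 22 °C, with overlap. Pfkfb2, the heart form, stayed between 0.572 and 0.995 RPKM in all libraries and did not pass.

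The shared steps of glycolysis, from glucose phosphate isomerase to pyruvate kinase, are represented by Gpi1, Aldoa, Aldoc, Tpi1, Gapdh, Pgk1, Pgam1, Eno1 and Pkm. In knockouts none of these 9 passed and 7 had a positive fitted value, with a median of 0.06 log2. In wild types Pgk1 alone passed and all 9 had a positive fitted value in the cold, with a median of 0.35 log2. The wild-type count of positive values fell to 7 of 9 by library totals (median 0.15 log2) and to 8 of 9 with replicate numbers as a block, and the knockout count fell to 4 of 9 by library totals and with males alone. Without wild-type 6 °C replicate 1, Aldoa (0.63, adjusted p = 0.0283) and Pkm (0.50, adjusted p = 0.0346) passed in wild types as well.

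Pgk1 (chromosome X, 106187100 to 106203699, plus strand) encodes phosphoglycerate kinase, the first step of glycolysis that yields ATP. In knockouts it had 68.5, 73.9, 72.5 and 62.9 CPM at 6 °C, against 57.1, 58.5, 64.6 and 71.9 CPM at 22 °C. In wild types it had 66.9, 61.5, 83.4, 78.9 and 68.0 CPM at 6 °C, against 59.4, 54.1, 52.1 and 51.3 CPM at 22 °C. The groups overlapped in knockouts and were apart in wild types by a narrow gap. Pgk1 rose by 0.40 ± 0.11 log2 in wild types (adjusted p = 0.0105), was 0.14 ± 0.11 log2 in knockouts (adjusted p = 0.424), and fell short by library totals in wild types (0.19, adjusted p = 0.137). GENCODE lists 3 further loci under Pgk1 names, none of them in the count table, and the split of reads between such copies is uncertain, as it is for Aldoa, Gapdh, Pgam1, Eno1 and Ldha.

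Aldoa, the main aldolase, had the second highest mean level of the 36 genes per length, after Pdk4, at 370 to 935 RPKM over all libraries. It had 3050.2, 2189, 1666 and 2749 CPM in knockouts at 6 °C, against 1759.7, 2067, 2439 and 1980.0 CPM at 22 °C. In wild types it had 1856, 2224, 2806, 3506 and 3175 CPM at 6 °C, against 2329, 2049, 1729 and 1425 CPM at 22 °C. The cold libraries reached well above the 22 °C range, while the lowest lay under it in knockouts and inside it in wild types, and neither response passed (0.22 ± 0.21 log2 in knockouts, 0.52 ± 0.20 log2 in wild types, adjusted p = 0.521 and 0.0656). Aldoa did pass in wild types under DESeq2's Wald test (0.52, adjusted p = 0.0321), without knockout 6 °C replicate 3 (0.52, adjusted p = 0.0422) and, as above, without wild-type 6 °C replicate 1. Aldoc, the brain-type aldolase, had 5 to 54 counts per library, and its values of -0.66 ± 0.41 log2 in knockouts and 0.14 ± 0.36 log2 in wild types rest on that depth.

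Most pairs of the glycolytic enzyme genes varied together from mouse to mouse. After the group means were removed, the median correlation of log2 levels over the 36 pairs of these 9 genes was 0.82 (range 0.02 to 0.97) across 17 libraries, a description of genes that share libraries and depth. The mean deviation of the 9 genes from their overall level ran from -0.36 to 0.28 log2 in knockouts at 6 °C, from -0.12 to 0.12 in knockouts at 22 °C, from -0.22 to 0.52 in wild types at 6 °C and from -0.32 to 0.09 in wild types at 22 °C. The lowest library, knockout 6 °C replicate 3 (-0.36), had a muscle marker sum of 1581 CPM and a mitochondrial share of 57.0%. The next lowest, wild-type 22 °C replicate 4 (-0.32), had 35.9 CPM and 48.9%. Knockout 22 °C replicate 4 (-0.08) had 1124 CPM and 57.3%, and wild-type 6 °C replicate 3 (0.20) had 1201 CPM and 52.2%. The highest, wild-type 6 °C replicate 4 (0.52), had 532 CPM and 47.4%. Libraries with high muscle sums thus lay both low and high. The highest mitochondrial shares, 57.0 and 57.3%, went with negative deviations. The lowest share, 43.4% in wild-type 6 °C replicate 5, went with 0.35, and the next lowest, 45.4% in wild-type 22 °C replicate 2, with -0.10. The part of these features in the spread was not tested.

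**Figure D4:**
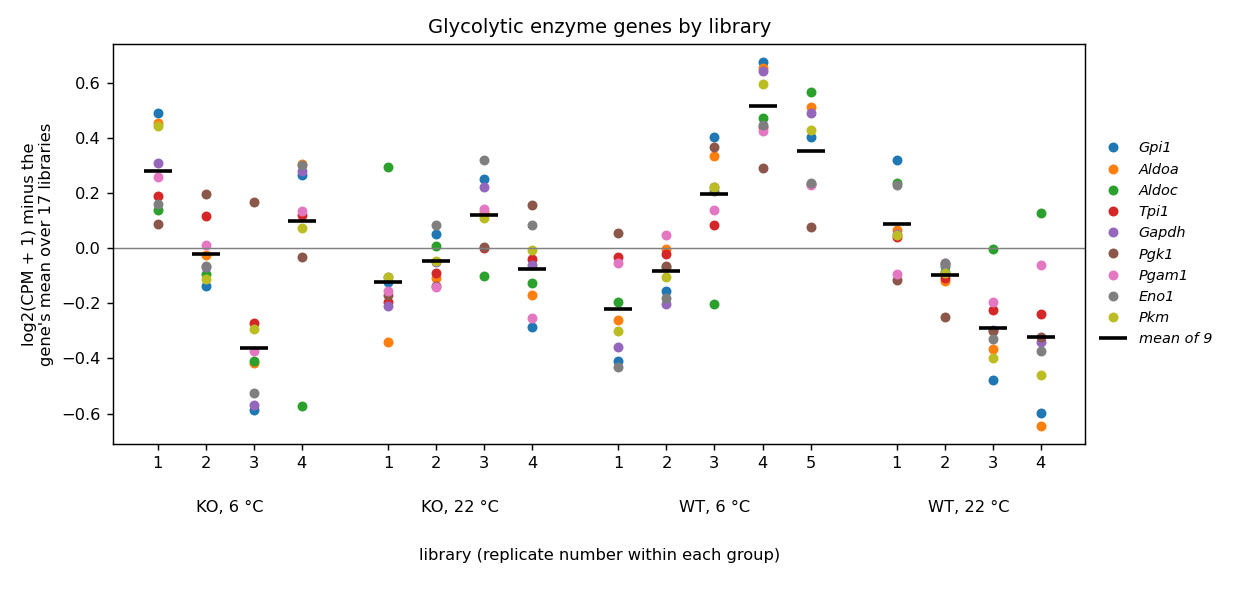
Deviation of 9 glycolytic enzyme genes from each gene's mean over 17 libraries (vertical axis, log2 of CPM plus 1), 1 column per library and black bars for the mean of the 9. Groups from left to right are knockouts at 6 °C, knockouts at 22 °C, wild types at 6 °C and wild types at 22 °C. The means of cold libraries range from -0.36 to 0.52, and within some libraries, such as knockout 6 °C replicates 3 and 4, single genes lie well away from that mean.

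The mRNA of the 4 lactate genes did not change detectably in the cold. Ldha and Ldhb encode the muscle-type and heart-type subunits of lactate dehydrogenase, and Slc16a1 and Slc16a3 the lactate carriers MCT1 and MCT4. No member of this group of 4 passed in either genotype, although all 4 fitted values were positive in each, from 0.05 to 0.30 log2 in knockouts and from 0.09 to 0.67 log2 in wild types. Ldha had 757, 733, 491 and 763 CPM in knockouts at 6 °C, against 634, 673, 704 and 625 CPM at 22 °C. In wild types it had 629, 623, 804, 891 and 793 CPM at 6 °C, against 791, 601, 529.9 and 527 CPM at 22 °C. Groups overlapped in both genotypes, with fitted values of 0.05 ± 0.16 log2 in knockouts and 0.28 ± 0.15 log2 in wild types and 95% intervals of -0.28 to 0.39 and -0.04 to 0.60. Ldha and Ldhb were nearly equal per length, Ldha being 53.9% of their RPKM in knockouts at 6 °C, 53.8% in knockouts at 22 °C, 56.8% in wild types at 6 °C and 54.4% in wild types at 22 °C. By counts, Ldha was 71.1% of the pair in knockouts at both temperatures, 73.4% in wild types at 6 °C and 71.5% at 22 °C. The near equality thus rests on the lengths behind the deposited RPKM. Slc16a3 was the scarcest of the 36 genes, at 3 to 14 counts per library, and its values cannot be read at that depth.

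Among the genes of the pyruvate switch, Pdk4 alone passed. Pdk4 (chromosome 6, 5483351 to 5496309, minus strand) encodes the kinase that shuts pyruvate dehydrogenase when fat is the fuel, and it had the highest mean level of the 36 genes per length, at 300 to 1197 RPKM. In knockouts it had 3331, 2945, 2463 and 3835 CPM at 6 °C, against 2092, 1874, 1605 and 1228 CPM at 22 °C. In wild types it had 3624, 4383, 3674, 2536 and 3629 CPM at 6 °C, against 1732, 2367, 1912 and 1625 CPM at 22 °C. The groups were apart in both genotypes. Pdk4 rose by 0.88 ± 0.19 log2 in knockouts (adjusted p = 0.00301) and by 0.91 ± 0.18 log2 in wild types (adjusted p = 0.00156), and both calls held in every alternative that was run.

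The other kinases did not follow it. Pdk2, the next most abundant, had 237, 188, 142 and 279.9 CPM in knockouts at 6 °C, against 262, 253, 268 and 166 CPM at 22 °C. In wild types it had 197, 192, 173, 259 and 218 CPM at 6 °C, against 243, 241, 288 and 287 CPM at 22 °C. Both pairs of groups overlapped, at -0.17 ± 0.18 log2 in knockouts and -0.36 ± 0.17 log2 in wild types, and Pdk2 passed in wild types only when their groups were fitted alone (-0.34, adjusted p = 0.0461). Pdk1, Pdk3 and the opposing phosphatase gene Pdp1 did not pass either. Pdk4 made up 91.0, 91.7, 92.1 and 91.1% of the kinases' summed RPKM in knockouts at 6 °C, against 84.9, 84.6, 81.6 and 82.4% at 22 °C. In wild types it made up 92.8, 94.0, 93.2, 87.7 and 92.3% at 6 °C, against 83.1, 87.6, 83.1 and 80.8% at 22 °C. These shares did not overlap within a genotype, although in wild types the gap was narrow.

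Glycogen genes held the largest single change. Ugp2 (chromosome 11, 21321138 to 21371201, minus strand) makes UDP-glucose, the donor that glycogen synthase uses. In knockouts it had 474, 551, 562 and 537 CPM at 6 °C, against 201, 241, 222 and 341 CPM at 22 °C. In wild types it had 545, 702, 792, 544 and 606 CPM at 6 °C, against 228, 301, 158 and 139 CPM at 22 °C. Every cold library lay above every 22 °C library of its genotype. Ugp2 rose by 1.09 ± 0.18 log2 in knockouts (adjusted p = 0.000429) and by 1.68 ± 0.17 log2 in wild types (adjusted p = 1.63e-05), in every alternative that was run. An exon of Gm12043 on the opposite strand overlaps Ugp2, and Gm12043 is not in the count table.

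Pygb (chromosome 2, 150786735 to 150831758, plus strand), the brain-type glycogen phosphorylase that releases glucose from glycogen, went the other way. It had 35.1, 35.6, 27.6 and 42.9 CPM in knockouts at 6 °C, against 45.5, 61.3, 56.2 and 43.6 CPM at 22 °C. In wild types it had 31.2, 37.4, 26.5, 30.9 and 32.5 CPM at 6 °C, against 36.8, 58.3, 61.9 and 45.7 CPM at 22 °C. The knockout groups were just apart, and the wild-type groups overlapped by a single library. Pygb changed by -0.54 ± 0.16 log2 in knockouts (adjusted p = 0.0215) and by -0.67 ± 0.15 log2 in wild types (adjusted p = 0.00364). The knockout call was lost without knockout 6 °C replicate 2 (adjusted p = 0.065) or 3 (0.0673) and without knockout 22 °C replicate 1 (0.0577), 2 (0.0803) or 3 (0.0651), with fitted values of -0.53 to -0.42 log2. It was also lost with male knockouts alone (-0.60, adjusted p = 0.0599) and with the knockout groups fitted alone (-0.55, adjusted p = 0.0518).

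Pygl, the liver-type phosphorylase, was the more abundant form and did not pass. It had 973, 736, 648 and 802 CPM in knockouts at 6 °C, against 752, 823, 770.0 and 885 CPM at 22 °C. In wild types it had 559, 692, 1047, 908 and 802 CPM at 6 °C, against 876, 691, 569.9 and 481 CPM at 22 °C. The groups overlapped in both genotypes (-0.04 ± 0.19 log2 in knockouts, 0.28 ± 0.18 log2 in wild types). Glycogenin Gyg, which primes the polymer, glycogen synthase Gys1 and the branching enzyme Gbe1 did not pass, with values from -0.01 to 0.12 log2 in knockouts and from -0.10 to 0.35 log2 in wild types. Gbe1 passed in wild types under DESeq2's test (0.36, adjusted p = 0.0445), without wild-type 6 °C replicate 1 (0.41, adjusted p = 0.0491) and without wild-type 22 °C replicate 1 (0.48, adjusted p = 0.0227), and Gyg when the wild-type groups were fitted alone (0.25, adjusted p = 0.048). Gyg libraries of wild types did not overlap between temperatures, with 120.2 to 134 CPM in the cold against 99.8 to 115 CPM at 22 °C. Counted in this way, 4 of the 36 genes lay wholly above and 2 wholly below in knockouts, where 10.8% and 9.43% of all tested genes did, and 7 and 1 in wild types, where 13% and 12.8% did.

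One wild-type library at 22 °C stood apart in Ppargc1a. In replicate 2 of that group, the only male, Ppargc1a, a cold-induced coactivator, reached 493 CPM, while the 3 females had 92.4 to 116 CPM. Of the 9 genes that passed in wild types, this library had the highest level of its group in Slc2a1, Pfkp, Pdk4 and Ugp2 and the lowest in Pfkfb1. It was second to replicate 1 in Hk2 and Pgk1, and second to replicate 3 in Pfkfb4 and Pygb. Without it, 9 genes again passed in wild types and the values of Slc2a1, Pfkp, Pdk4 and Ugp2 were 1.08, 1.59, 1.04 and 1.82 log2.

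The loss of Nocturnin itself left the glucose genes without a detectable change. At 6 °C, 0 of the 36 genes passed for knockout against wild type, where 0.04% of all tested genes passed. At 22 °C, 0 of 36 passed, where 0.016% of all tested genes passed. For the difference between the cold responses, 0 of 36 passed, where 0.00801% did. DESeq2 likewise gave 0 of 36 in each of these 3 comparisons. At an unadjusted p under 0.05, edgeR gave 2 of the 36 at 6 °C (Pfkfb1 at 0.45 log2 and Ugp2 at -0.49 log2; 3.15% of all tested genes), 1 at 22 °C (Slc16a3, at 1.28 log2 on very few counts; 3.89% of all tested genes) and 1 in the difference (Ugp2; 2.48% of all tested genes). The Ugp2 response was smaller in knockouts by 0.59 ± 0.24 on the log2 scale, with a 95% interval of the difference (knockout minus wild type) of -1.10 to -0.08, and it did not pass after adjustment (adjusted p = 1.00). Ugp2 had at least 4236 counts in every library.

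For the other 6 genes that passed in both cold responses, the interval of the difference between genotypes held 0. The difference for Slc2a1 was 0.21 log2 (-0.44 to 0.85), for Hk2 0.03 log2 (-0.53 to 0.59), for Pfkp -0.40 log2 (-1.03 to 0.23), for Pdk4 -0.02 log2 (-0.57 to 0.52), for Pfkfb1 0.21 log2 (-0.31 to 0.73) and for Pygb 0.12 log2 (-0.34 to 0.58). Differences inside these intervals are compatible with these data, so equal responses were not shown. The 9 glycolytic genes all had a negative difference (median -0.30 log2), and none passed. Knockout minus wild type was negative for all 9 at 6 °C (median -0.07 log2) and positive for all 9 at 22 °C (median 0.23 log2). The signs at the single temperatures depended on the model. At 6 °C, 7 of 9 were positive with age as a further covariate, and 7 of 9 when the 6 °C groups were fitted alone. At 22 °C, 7 of 9 were positive by library totals. The difference stayed negative for all 9 with age (median -0.22 log2) and by library totals (median -0.16 log2). These comparisons share groups and the 9 genes share their spread between mice, so the signs are not separate observations.

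Genes around the pathway were read from 7 lists outside the 36, against the shares of all tested genes given above. Of 15 genes of insulin signalling and carrier traffic, 3 rose and 3 fell in knockouts, and 2 rose and 3 fell in wild types. Pik3r1, a regulatory subunit of phosphatidylinositol kinase, had 23.2 ± 4.04 CPM in knockouts at 6 °C and 95.8 ± 37.8 CPM at 22 °C, and 21.1 ± 4.57 CPM in wild types at 6 °C and 77.7 ± 17.0 CPM at 22 °C (SD, n = 4, 4, 5 and 4). It fell by 2.06 on the log2 scale in knockouts and 1.88 in wild types. Akt2, a kinase of insulin-driven glucose uptake, fell in both (-0.53 ± 0.15 log2 in knockouts, -0.65 ± 0.14 log2 in wild types). Pdpk1, the kinase that activates Akt, rose in both (0.65 ± 0.13 log2 in knockouts, 0.63 ± 0.12 log2 in wild types), and the insulin receptor substrate Irs2 rose in knockouts (1.55 ± 0.43 log2). The others past the threshold, named after their values were seen, were the insulin receptor gene Insr, higher in both (0.45 ± 0.10 log2 in knockouts, 0.33 ± 0.10 log2 in wild types), and Tbc1d4, a brake on carrier traffic, lower in both (-0.51 ± 0.16 log2 in knockouts, -0.42 ± 0.15 log2 in wild types). The median of the list was 0.06 log2 in each genotype.

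Of 24 other glycogen genes, 3 fell and none rose in knockouts, and 3 fell and 1 rose in wild types. The largest changes were in Ppp1r3b and Ppp1r3d, which bring a phosphatase to glycogen and favour its synthesis. Ppp1r3b had 134 ± 28.1 CPM in knockouts at 6 °C and 283 ± 76.0 CPM at 22 °C, and 113 ± 19.0 CPM in wild types at 6 °C and 245 ± 60.3 CPM at 22 °C. It changed by -1.08 ± 0.21 log2 in knockouts and -1.11 ± 0.19 log2 in wild types, and Ppp1r3d by -0.80 ± 0.13 log2 in knockouts and -1.30 ± 0.12 log2 in wild types. Epm2a, the glycogen phosphatase laforin, fell in both (-0.59 ± 0.12 log2 in knockouts, -0.57 ± 0.12 log2 in wild types), and Nhlrc1, its partner malin, rose in wild types (0.69 ± 0.17 log2). The list's median was -0.01 log2 in knockouts and -0.04 log2 in wild types.

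The pyruvate dehydrogenase complex, its phosphatases and the mitochondrial pyruvate carrier gave 9 genes, of which 1 rose in knockouts and 2 in wild types. Pdp2, a phosphatase that reactivates the complex and so opposes Pdk4, rose by 0.78 ± 0.15 log2 in knockouts and 0.55 ± 0.15 log2 in wild types, and Pdhx, a structural subunit, by 0.28 ± 0.10 log2 in wild types. Among 27 other carriers and isoenzymes, 17 were tested, of which 1 rose and 1 fell in knockouts and 4 rose and 3 fell in wild types. Tigar, a phosphatase that lowers the activator of phosphofructokinase, rose in both (0.46 ± 0.13 log2 in knockouts, 0.61 ± 0.13 log2 in wild types), and the urate and hexose carrier Slc2a9 fell in both (-0.97 ± 0.28 log2 in knockouts, -1.07 ± 0.26 log2 in wild types). Slc2a9 was scarce, at a mean of 0.870 CPM in knockouts at 6 °C and 1.66 CPM at 22 °C. Its wild-type means were 0.836 CPM at 6 °C and 1.75 CPM at 22 °C, and groups overlapped in both genotypes. Fbp1, a gluconeogenic bisphosphatase, rose in wild types (1.39 ± 0.47 log2) at a mean of 0.645 CPM at 6 °C and 0.242 CPM at 22 °C. The median was 0.01 log2 in knockouts and 0.28 log2 in wild types for the pyruvate dehydrogenase list, and -0.05 log2 in each for the carriers and isoenzymes. Of 8 tested pentose phosphate genes, H6pd, which starts the pathway inside the endoplasmic reticulum, fell in knockouts (-0.51 ± 0.18 log2) and none passed in wild types, with medians of -0.12 log2 in knockouts and 0.02 log2 in wild types.

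Among regulators and hypoxia-responsive genes, most of those that passed were higher in the cold. Of 18 transcription factors and oxygen sensors that act on glycolytic genes, 3 rose and 1 fell in knockouts and 6 rose in wild types, led by Ppargc1a (3.37 ± 0.35 log2 in knockouts, 2.86 ± 0.35 log2 in wild types), Foxo1 (1.15 ± 0.17 log2 in knockouts, 1.24 ± 0.16 log2 in wild types) and the oxygen sensor Egln3 (1.02 ± 0.28 log2 in knockouts, 1.12 ± 0.26 log2 in wild types). Foxo1 is known as an activator of Pdk4. The 1 that fell in knockouts was Mxi1, an antagonist of Myc (-0.51 ± 0.13 log2). The list's median was 0.15 log2 in knockouts and 0.10 log2 in wild types. Of 11 tested hypoxia-responsive genes outside the 36, 4 rose in knockouts and 7 rose in wild types, and none fell, with medians of 0.37 log2 in knockouts and 0.47 log2 in wild types. P4ha1, a collagen prolyl hydroxylase, had 71.6 ± 26.4 CPM in knockouts at 6 °C and 21.4 ± 4.87 CPM at 22 °C, and 119 ± 20.6 CPM in wild types at 6 °C and 26.9 ± 10.4 CPM at 22 °C, a rise of 1.74 ± 0.29 log2 in knockouts and 2.16 ± 0.28 log2 in wild types. The stress gene Ddit4 rose by 1.44 ± 0.42 log2 in knockouts and 1.34 ± 0.40 log2 in wild types, and the vasodilator gene Adm by 1.24 ± 0.38 log2 in knockouts and 1.31 ± 0.34 log2 in wild types. Adm was scarce, at a mean of 0.832 CPM in knockouts at 6 °C and 0.352 CPM at 22 °C. Its wild-type means were 0.948 CPM at 6 °C and 0.375 CPM at 22 °C, and the wild-type groups overlapped. In these 7 lists no gene passed for either genotype comparison or for the difference between the cold responses.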

How the data were processed

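The authors deposited whole-number counts of reads per gene and RPKM values, 1 column per library. The submitters' processing notes name STAR, HTSeq, mm10 and GRCm38.p6. Their versions, the annotation and the strand setting are not given, and reads of overlapping genes on opposite strands cannot be told apart. The deposited counts were tested as they stand with the quasi-likelihood F test of edgeR 4.0.16 in R 4.3.3 (TMM scaling, filterByExpr, group and sex as terms, all 17 libraries), with Benjamini-Hochberg adjustment over 12486 genes at 0.05. SE is the absolute log2 fold change over the square root of F. The deposited RPKM values were used only to compare levels between genes and for family shares. The submitters' labels gave every library its group, and each library is a separate mouse.

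The 36 genes and all lists were chosen with earlier results of these data known. By rule, genes past the threshold and the most abundant other gene of each step are described by library, and up to 3 genes per list and comparison are named. Further genes, such as Hk1, Pfkfb2 and Aldoc, were named after their values were seen. Gene positions are from GENCODE vM21 on GRCm38, promoters from RefSeq. The fit was run on simulated counts with the same spread for every gene and no sex effect or correlation between genes. That run checks the code and does not show how the calls behave in these data. Alternatives were library-total scaling, size factors of DESeq2 1.42.0 within edgeR, no mitochondrial genes, other low-count filters, DESeq2's own test, other covariates, a replicate block, fewer samples and each library left out. Library totals ran from 18410748 to 47598200 counts.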

Additional observations from a re-analysis of the deposited data

Results flagged for a closer look

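Over the 36 genes and 4 groups, 144 sets of 4 or 5 libraries were examined for a single library far from the rest, and 9 were marked; chance alone marks about 1 in 20. In glucose entry, Slc2a1 stood at 1.71 CPM in knockout 22 °C replicate 4, against 2.79 to 2.95 CPM in the other 3, and Slc2a4 at 297 CPM in wild-type 22 °C replicate 1, against 242 to 248 CPM. Pfkfb4 stood at 2.51 CPM in wild-type 22 °C replicate 3, against 2.37 to 2.38 CPM, a group whose whole range was small. Of the lactate dehydrogenases, Ldha stood at 491 CPM in knockout 6 °C replicate 3, against 733 to 763 CPM, and Ldhb at 212 CPM in wild-type 6 °C replicate 2, against 276 to 292 CPM. Of the pyruvate dehydrogenase kinases, Pdk1 stood at 179 CPM in wild-type 22 °C replicate 1, against 143 to 149 CPM, and Pdk2 at 166 CPM in knockout 22 °C replicate 4, against 253 to 268 CPM. Of the glycogen genes, Gyg stood at 158 CPM in knockout 6 °C replicate 4, against 110.1 to 113 CPM, and Gys1 at 213 CPM in wild-type 22 °C replicate 3, against 188 to 189.8 CPM.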

How the results depend on the processing

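Each of the 16 cold responses that passed was refitted under 12 alternatives and with each of 17 libraries left out. Of 464 values, 443 kept direction and call, 21 lost the call and 0 reversed. The libraries left out included those of the other genotype, which enter a response only through the shared fit. Every call lost by leaving out 1 library was lost with a library of the compared groups. The tally of 443 therefore overstates how stable the calls are. Ugp2, Pfkp and Pdk4 passed in all of these refits in both genotypes. The lost calls were of Hk2 and Pygb (9 and 7), Pfkfb1 (3), Slc2a1 (1) and Pgk1 (1). The number of the 36 genes past the threshold ran from 5 to 7 in knockouts and from 8 to 11 in wild types over the alternatives. Leaving out 1 library gave 4 (without knockout 22 °C replicate 3) to 7 in knockouts and 8 to 12 (without wild-type 6 °C replicate 1) in wild types. Both genotype comparisons and the difference gave 0 throughout. With male knockouts alone the count was 5, Hk2 (0.43, adjusted p = 0.199) and Pygb (-0.60, adjusted p = 0.0599) fell short, and 1647 of all genes passed. With the knockout groups fitted alone 1589 passed, against 2697 in the fit of all libraries. For genotype, DESeq2 gave 12 genes of the whole table at 6 °C and 10 at 22 °C, against 5 and 2 in edgeR. Deviations of same-numbered libraries of different groups had correlations of -0.43 to 0.51. Differently numbered libraries were not compared, and within each genotype same-numbered libraries were of the same sex. Whether the numbers pair the mice was therefore not tested, and the labels do not say. With a replicate block 7 of the 36 genes passed in knockouts and 9 in wild types, and all-gene counts of 2220 and 2609. By counts in place of RPKM, the cold shift of the Pfkp share was 10.8 percentage points in knockouts and 14.3 in wild types, and that of the Pfkfb3 share 2.77 in knockouts, against 4.71 by RPKM. The one-sex fit was not run for genotype or the difference, nor the fit of compared groups alone for the difference. Genes of few counts (Slc16a3, Pfkfb4, Aldoc) are limited by depth, and sex is unequally spread over genotypes.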
